A study of Mus musculus with 9 samples.

Results

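The 9 genes Calca, Calcb, Scn10a, Scn11a, Avil, Prdm12, Mrgprd, Trpv1 and P2rx3 mark the sensory neurons of dorsal root ganglia, which lie outside the spinal cord and send their axons into it through the dorsal roots. They were taken by symbol from a table of 40879 gene symbols, and all 9 were found. The table holds read counts from whole spinal cord of wild-type mice in 3 groups of 3 libraries. One group was naive, and the others had experimental autoimmune encephalomyelitis (EAE, an immune attack on myelin) and received either vehicle or GV1001, which is a telomerase peptide. The labels give no strain, age, dose or day of disease, and do not say whether replicates are separate animals, so p-values measure only the spread between these samples. Total counts ranged from 5247246 to 6174870 per library. Levels are given as counts or as counts scaled to a common library total (CPM). A count of 0 in a library allows a level of up to 3 counts, which is 0.486 to 0.572 CPM. This floor, and all intervals below, cover counting error only.

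Nociceptors are the ganglion neurons that detect painful stimuli. Peptidergic nociceptors release calcitonin gene-related peptide (CGRP), and non-peptidergic ones carry receptors such as the Mas-related receptor Mrgprd and the ATP-gated channel P2rx3. Their cell bodies, which hold most of their messenger RNA, sit in the ganglia, so a spinal cord freed of its ganglia holds the axon terminals but not the cell bodies. Calca and Calcb, which encode the 2 forms of CGRP, are also expressed by spinal motor neurons.

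The summed level of the 7 members other than the CGRP genes was high in 3 libraries and low in the other 6. Replicates are given in the order 1, 2, 3. In the naive group it was 1.6, 157 and 2.35 CPM. Vehicle libraries held 1.62, 2.29 and 4.53 CPM, and GV1001 libraries 0.756, 129 and 45.2 CPM. Naive replicate 2 and GV1001 replicates 2 and 3 thus stood apart from every other library, and no vehicle library was among them. Of the 9 members, 9, 9 and 8 had more than 3 counts in these 3 libraries, and 2 to 4 did in each of the others. The division ran within the naive and within the GV1001 group. Estimates below that rest on these libraries are followed by values without them.

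**Figure D1:**
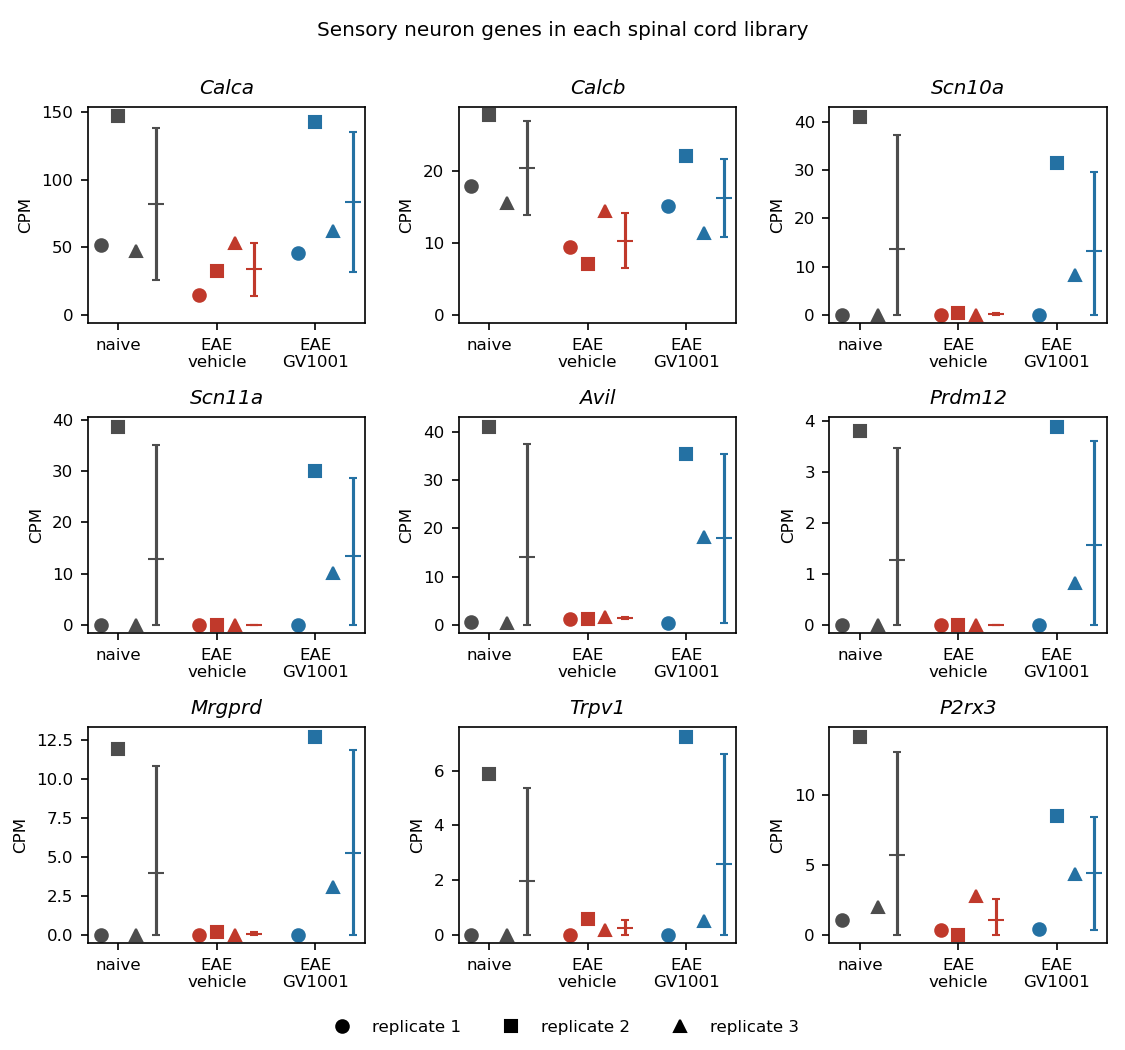
Level of each of the 9 genes in CPM (vertical axes, different in each panel) in the 9 libraries, by group and by replicate (symbols). The dash and bar beside each group are the mean and SD, with the lower end drawn no lower than 0. For Scn10a, Scn11a, Prdm12 and Mrgprd, naive replicate 2 and GV1001 replicates 2 and 3 hold nearly all counts.

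Among the ion channels, Scn10a encodes a tetrodotoxin-resistant sodium channel, which carries much of the action potential in nociceptors. Naive libraries held 0, 238 and 0 counts, vehicle libraries 0, 2 and 0, and GV1001 libraries 0, 179 and 51. Scn11a, its neighbour on the chromosome in the RefSeq annotation, encodes another tetrodotoxin-resistant sodium channel, which sets the excitability of the same cells. It had 0, 224 and 0 counts in the naive, 0, 0 and 0 in the vehicle, and 0, 170 and 62 in the GV1001 replicates. Both genes were thus at 0 in 2 of 3 naive libraries and in GV1001 replicate 1. Trpv1, the channel opened by capsaicin and heat, had 0, 34 and 0, then 0, 3 and 1, then 0, 41 and 3 counts in the same order. In GV1001 replicate 3 it did not exceed the floor, unlike the sodium channels there. P2rx3, the ATP-gated channel, had 6, 82 and 11, then 2, 0 and 16, then 2, 48 and 27 counts. Vehicle replicate 3 exceeded naive replicates 1 and 3 for this gene, and the gene was thus found outside the 3 libraries as well. P2rx3 overlaps Prg3 in the RefSeq annotation, and whether reads were counted by strand is not given in the sources used here. Prg3 had 10 counts over all libraries.

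The receptor Mrgprd, which marks non-peptidergic nociceptors of the skin, had 0, 69 and 0 counts in the naive, 0, 1 and 0 in the vehicle, and 0, 72 and 19 in the GV1001 replicates. Prdm12, a transcriptional regulator needed for nociceptors to form, had 0, 22 and 0, then 0, 0 and 0, then 0, 22 and 5 counts. It was thus found in the same 3 libraries and in no other. Avil encodes advillin, an actin-binding protein of sensory neurons at large. It had 3, 238 and 2, then 7, 6 and 9, then 2, 201 and 112 counts. The vehicle libraries held 1.14 to 1.57 CPM of Avil, a little above the 0.361 to 0.534 CPM of naive replicates 1 and 3.

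The 250 bases upstream of the annotated start of 4 members are shown. Scn10a, Scn11a and Avil were high in the same 3 libraries, as were Mrgprd and Prdm12, which are not shown. Trpv1 was high in 2 of these and not above the floor in GV1001 replicate 3. Avil and Trpv1 are also the members with the motif marked here, so the 4 are not a sample of the members. The sequences come from RefSeq (build GRCm38.p6, while the counts were made on GRCm39), read 5′ to 3′ on the strand of the gene. Capitals mark TGTGGT, the core letters of the motif of RUNX factors, among which Runx1 acts in nociceptor development.
Avil (chr10:127000459-127000708, plus strand): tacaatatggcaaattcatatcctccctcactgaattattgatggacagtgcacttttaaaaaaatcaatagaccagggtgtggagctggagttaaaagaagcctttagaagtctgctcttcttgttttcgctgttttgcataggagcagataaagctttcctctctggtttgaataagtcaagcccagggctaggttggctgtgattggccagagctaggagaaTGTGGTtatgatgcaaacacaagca
Trpv1 (chr11:73233899-73234148, plus strand): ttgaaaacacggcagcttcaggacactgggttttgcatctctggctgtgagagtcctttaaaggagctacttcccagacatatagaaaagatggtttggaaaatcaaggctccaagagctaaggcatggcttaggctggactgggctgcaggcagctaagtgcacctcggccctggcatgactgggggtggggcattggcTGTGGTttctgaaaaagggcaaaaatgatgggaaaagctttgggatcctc
Scn10a (chr9:119719033-119719282, minus strand): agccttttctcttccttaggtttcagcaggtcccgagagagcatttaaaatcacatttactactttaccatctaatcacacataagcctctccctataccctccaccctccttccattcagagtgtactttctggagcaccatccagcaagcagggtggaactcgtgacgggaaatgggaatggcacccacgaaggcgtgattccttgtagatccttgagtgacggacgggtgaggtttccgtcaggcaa
Scn11a (chr9:119825457-119825706, minus strand): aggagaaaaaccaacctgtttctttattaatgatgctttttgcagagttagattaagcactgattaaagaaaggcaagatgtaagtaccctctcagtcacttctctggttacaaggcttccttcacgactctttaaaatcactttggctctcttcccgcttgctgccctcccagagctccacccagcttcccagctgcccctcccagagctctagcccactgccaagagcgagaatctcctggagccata
Upstream sequence was matched for 7 members (Calca, Scn10a, Scn11a, Avil, Prdm12, Mrgprd and Trpv1). TGTGGT on either strand was present in 2 of the 7, Avil and Trpv1, and in 14.1% of the 32851 windows of the same length. The homeodomain core TAATTA, which reads the same on both strands, was present in 0 of 7 and in 4.84% of windows, and TATAAA on either strand in 0 of 7 and in 12.4%. In the 7 members no motif overlapped another. A match is a stretch of letters and not a site in use.

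The CGRP genes were detected in all 9 libraries. Calca stood at 51.9, 147 and 47.1 CPM in naive libraries, 14.7, 32.4 and 53.5 CPM in vehicle libraries, and 45.7, 143 and 61.9 CPM in GV1001 libraries. The highest values were again those of naive replicate 2 and GV1001 replicates 2 and 3, while the other 6 libraries held 14.7 to 53.5 CPM. Calcb was at 17.8, 27.8 and 15.5 CPM in the naive, 9.34, 7.05 and 14.5 CPM in the vehicle, and 15.1, 22 and 11.3 CPM in the GV1001 replicates. Its highest values fell in naive replicate 2 and GV1001 replicate 2, but GV1001 replicate 3 lay below GV1001 replicate 1. Counts of Calca per count of Calcb were 5.3, 6.49 and 5.46 in naive replicate 2 and GV1001 replicates 2 and 3, and 1.58 to 4.59 in the other libraries. Calca also encodes calcitonin through another choice of exons, and a count per gene does not separate the 2 products.

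Motor neuron genes, as another source of CGRP, were present throughout. The summed level of 7 motor neuron markers, led by Chodl and Slc5a7, was 322, 264 and 309 CPM in the naive, 196, 286 and 272 CPM in the vehicle, and 314, 236 and 281 CPM in the GV1001 replicates, with Mnx1 at 0 in all 9. Vehicle replicate 1 was lowest for both this list and Calca. The list was lower in naive replicate 2 and GV1001 replicate 2 than in the other libraries of their groups, in contrast to Calca. Its part in the level of Calca was not tested. In bulk tissue, fewer cells of a type and less RNA per cell cannot be told apart.

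The make-up of the signal was compared among the 3 libraries that held it. Shares are of the 907, 733 and 279 counts of the 7 non-CGRP members in naive replicate 2 and GV1001 replicates 2 and 3, with 95% Wilson intervals. Naive replicate 2 and GV1001 replicate 2 had overlapping intervals for all 7 genes. In naive replicate 2, Scn10a took 26.2%, Scn11a 24.7% and Avil 26.2%, and in GV1001 replicate 2 these were 24.4%, 23.2% and 27.4%. GV1001 replicate 3 held more Avil in proportion, at 40.1% (34.6 to 46), clear of the intervals of naive replicate 2 (23.5 to 29.2) and GV1001 replicate 2 (24.3 to 30.8). Its share of Scn10a, 18.3% (14.2 to 23.2), lay below that of naive replicate 2 (23.5 to 29.2) and overlapped that of GV1001 replicate 2 (21.4 to 27.7). Its share of Trpv1, 1.07% (0.366 to 3.11), lay below that of GV1001 replicate 2 (4.15 to 7.5) and overlapped that of naive replicate 2 (2.69 to 5.19).

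**Figure D2:**
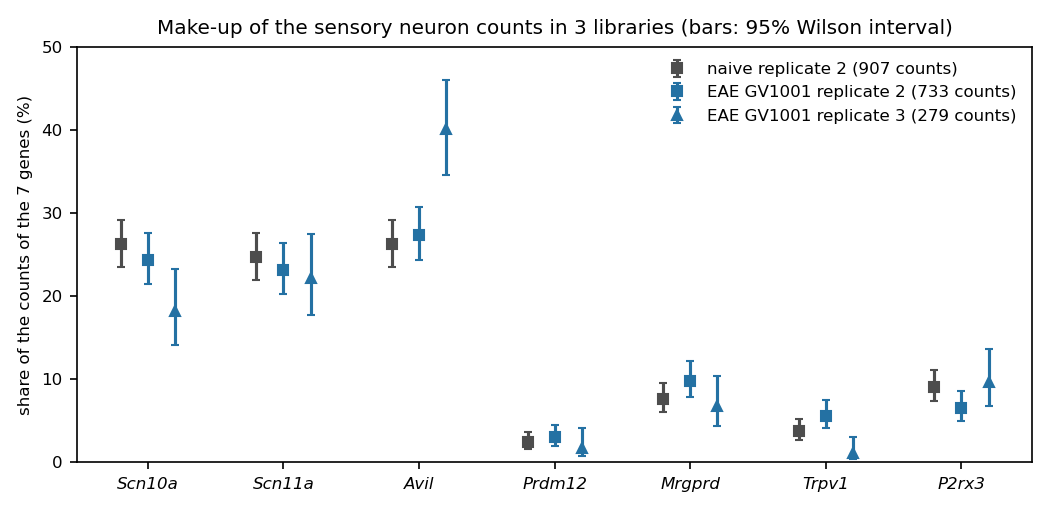
Share of each gene (vertical axis, percent) in the summed counts of the 7 non-CGRP members in naive replicate 2 (907 counts) and GV1001 replicates 2 and 3 (733 and 279 counts), with 95% Wilson intervals. Avil stands at 40.1% in GV1001 replicate 3 and at 26.2% and 27.4% in the other libraries.

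Relative to naive replicate 2, members were present in GV1001 replicate 3 at different fractions. The ratio of CPM was 0.441 (95% exact Poisson interval 0.349 to 0.555) for Avil, 0.309 (0.192 to 0.482) for P2rx3, 0.26 (0.193 to 0.345) for Scn11a, 0.258 (0.147 to 0.434) for Mrgprd, 0.201 (0.145 to 0.273) for Scn10a and 0.0828 (0.0163 to 0.263) for Trpv1. The intervals of Avil and Scn10a did not overlap. The same ratio in GV1001 replicate 2 ranged from 0.598 (0.41 to 0.864) for P2rx3 to 1.23 (0.763 to 2) for Trpv1. Each ratio compares single libraries.

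In the comparison of EAE vehicle with naive cord, which asks what differs in diseased tissue, 0 of the 7 members tested passed an adjusted p of 0.05 in edgeR's quasi-likelihood test, where 0.0195% of the 15351 genes tested did. At an unadjusted p under 0.05 there were 3 of 7 members, beside 19.3% of all genes. The filter on low counts kept 7 members, 4 of them (Scn10a, Scn11a, Avil and Mrgprd) through the 3 libraries above alone, so their estimates are not a sample of all 9. The 7 estimates were negative, with a median log2 fold change of -3.42 beside -0.0047 for all genes. Calcb had the smallest adjusted p, 0.122, with a log2 fold change of -1.01 ± 0.33 (SE). Its means were 10.3 ± 3.8 CPM in vehicle and 20.4 ± 6.53 CPM in naive libraries (SD, n = 3). It was also the 1 member whose groups did not overlap, with all vehicle libraries lower. The margin was small, with 86 counts in naive replicate 3 and 83 in vehicle replicate 3. Groups did not overlap for 23.1% of genes, with vehicle lower for 9.5% and higher for 13.6%. Calca stood at 33.6 ± 19.4 against 82.1 ± 56.6 CPM (SD, n = 3), a log2 fold change of -1.33 ± 0.56 with an adjusted p of 0.223 in edgeR. Without naive replicate 2 these estimates were -0.73 for Calcb and -0.61 for Calca.

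The naive means of the other 5 tested members rested on 1 library. Naive replicate 2 held 100% of the naive counts of Scn10a, Scn11a and Mrgprd, 97.9% of those of Avil and 82.8% of those of P2rx3. The edgeR log2 fold change of Scn10a was -6.63 ± 2.57 (adjusted p 0.173), and without naive replicate 2 it was 2.67. For Avil it was -3.42 ± 1.73 and 1.48 without that library, and for Mrgprd -5.65 ± 2.80 and 1.88. These estimates reversed when 1 library was left out, and with very few counts on both sides they are no measure of size. P2rx3 had -2.43 ± 1.23, and -0.53 without naive replicate 2. The pooled counts of Scn10a, 2 in vehicle and 238 in naive libraries, gave a ratio of 0.0086 (95% exact Poisson interval 0.00104 to 0.0314), and the interval does not cover the difference between naive libraries. Scn11a had no vehicle count, and its pooled level was at least 72.9-fold lower than in naive cord against a floor of 3 counts over the group. That of Prdm12 was at least 7.16-fold lower. Both genes were at 0 in naive replicates 1 and 3, so these bounds do not hold for each library. DESeq2 called Scn11a in this comparison (adjusted p 5.65e-06), with all its naive counts in 1 of 3 libraries. It was 1 member called, where DESeq2 called 6.52% of the genes to which it gave an adjusted p, and limma-voom called 0 members. Over the alternatives its adjusted p ranged from 5.65e-06 to 0.723. Prdm12 and Trpv1 did not pass the filter over the 9 libraries, and neither was called in edgeR without it.

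**Figure D3:**
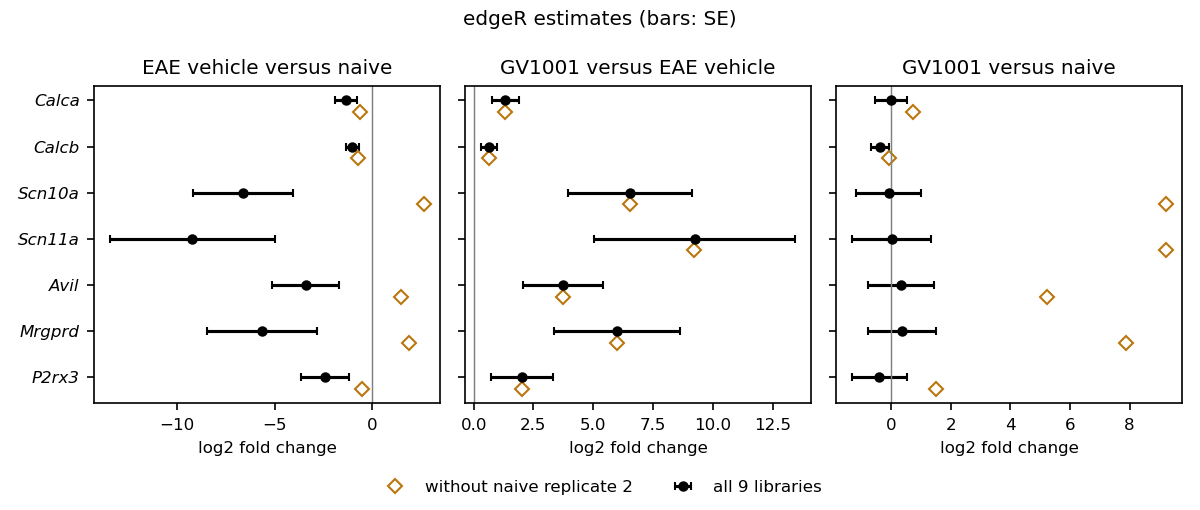
Log2 fold changes of the 7 tested members (horizontal axes, scaled separately) in the 3 comparisons, as fitted by edgeR on all 9 libraries with SE (filled) and without naive replicate 2 (open diamonds). Scn11a has no open diamond in the left panel because it had no count in the remaining libraries. Scn10a moves from -6.63 to 2.67 in vehicle against naive, and from -0.08 to 9.22 in GV1001 against naive.

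Between the EAE groups, GV1001 against vehicle, 0 of 7 members passed in edgeR, as did 0.0% of all genes. At an unadjusted p under 0.05 there were 4 of 7 members and 9.08% of all genes. Scn10a, Scn11a, Avil and Mrgprd passed the filter only through naive replicate 2 and GV1001 replicates 2 and 3. No vehicle library was among these, so the filter in part set this count and the direction of their estimates. The count is thus no support for a difference. This comparison shares the vehicle libraries with the one before. The 7 estimates were positive with a median log2 fold change of 3.75, and the adjusted p ranged from 0.528 to 0.65. Scn10a was at 6.55 ± 2.60, Avil at 3.75 ± 1.67, Mrgprd at 6.01 ± 2.63 and P2rx3 at 2.03 ± 1.30 (log2, SE). Without GV1001 replicate 2 these were 4.95, 2.85, 4.34 and 1.20. Calca was at 83.5 ± 52.1 against 33.6 ± 19.4 CPM (SD, n = 3), a log2 fold change of 1.33 ± 0.56 with an adjusted p of 0.539 in edgeR. Calcb was at 16.2 ± 5.43 against 10.3 ± 3.8 CPM (SD, n = 3), with 0.64 ± 0.34. The groups overlapped for all 9 members, while GV1001 was lower without overlap for 5.03% of genes and higher for 5.44%. GV1001 replicate 1 lay within or below the vehicle range for 8 members, and for Calcb GV1001 replicate 3 lay within it.

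GV1001 replicate 2 held the largest part of the GV1001 counts of each member. It held 45.5% for Calcb, 56.5% for Calca, 62.3% for P2rx3 and 63.8% for Avil. It alone held 77.8% of the GV1001 counts of Scn10a, 73.3% of Scn11a, 81.5% of Prdm12, 79.1% of Mrgprd and 93.2% of Trpv1. The pooled level of Scn11a was at least 74.7-fold higher than in vehicle, against a floor of 3 counts over the group, and that of Prdm12 at least 8.69-fold higher. Both genes were at 0 in GV1001 replicate 1, so these bounds do not hold for each library. The ratio for Mrgprd, with 91 against 1 counts, was 87.9 (95% exact Poisson interval 15.4 to 3509). DESeq2 called Scn11a here too (adjusted p 0.000133), and 0.0569% of all genes. With naive replicate 2 and GV1001 replicates 2 and 3 left out together, Calca stood at a log2 fold change of 0.45 (adjusted p 0.888 in edgeR), Calcb at 0.55 (0.844) and P2rx3 at -1.47 (0.901), with 1 GV1001 library assumed to vary like the other groups.

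GV1001 against naive gave 0 of 7 members called in edgeR, and 0 in DESeq2 and limma-voom, where edgeR called 0.0% and DESeq2 0.237% of all genes. There were 0 at an unadjusted p under 0.05 beside 7.3% of all genes. Groups overlapped for all 9 members, while GV1001 was lower without overlap for 6.7% of genes and higher for 10.2%. The median log2 fold change was -0.0025, and the estimates ran from -0.40 ± 0.92 for P2rx3 to 0.36 ± 1.15 for Mrgprd. Apart from Calca and Calcb, the standard errors were 0.92 to 1.32, and this does not show that the groups were alike. Without naive replicate 2, Scn10a was at 9.22, Avil at 5.24 and Calca at 0.72. The order of the summed level of the 7 non-CGRP members was GV1001 (58.4 ± 65.3 CPM), naive (53.5 ± 89.3) and vehicle (2.81 ± 1.53, SD, n = 3), and no neighbours in this order were separated, since each group held a library under 2 CPM. Without naive replicate 2 the naive mean was 1.98 CPM, below vehicle, and without GV1001 replicate 2 the GV1001 mean was 23 CPM, below naive.

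Further genes of sensory neurons were summed by library. Among 13 further channels and receptors, the summed level was 31.9, 277 and 29.1 CPM in the naive, 38.3, 31.1 and 36.1 CPM in the vehicle, and 34.9, 239 and 99.1 CPM in the GV1001 replicates. The 3 high libraries were those of the members. Its most abundant genes were Tmem233, a membrane protein that binds sodium channels, and Piezo2, the channel of touch. Tmem233 had 4, 738 and 1, then 10, 5 and 1, then 39, 541 and 225 counts. Piezo2 had 60, 326 and 44, then 113, 48 and 85, then 55, 309 and 137. In edgeR 0 of the 6 genes tested passed in any comparison, with 1, 2 and 0 at an unadjusted p under 0.05, and 0 in DESeq2 or limma-voom. Of all genes, 19.3% were under that p in vehicle against naive, 9.08% in GV1001 against vehicle and 7.3% in GV1001 against naive. The median log2 fold changes were -1.17, 1.24 and 0.27 in vehicle against naive, GV1001 against vehicle and GV1001 against naive, beside -0.0047, -0.0088 and 0.0019 for all genes. With the 3 libraries left out, 6 genes were tested and the medians were 0.13, -0.10 and -0.16.

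Several genes of itch-sensing neurons were at the limit of detection. Of 8 genes on this list, Mrgprx1, Mrgprb4 and Mrgprb5 had no count in any library, and Mrgpra3 had 7 and 5 counts, in naive replicate 2 and GV1001 replicate 2. Il31ra, a subunit of the receptor for interleukin 31, had 17, 95 and 11, then 9, 5 and 14, then 19, 78 and 28 counts. Osmr, the subunit it pairs with, had 15, 27 and 17, then 83, 70 and 135, then 25, 76 and 59 counts, and its vehicle counts were thus above all naive counts. Mrgpra3 had no count in the vehicle libraries, and which cells held Osmr was not tested. In edgeR 0 of the 2 genes tested, Osmr and Il31ra, passed in any comparison. At an unadjusted p under 0.05 there were 2, 2 and 1, beside 19.3%, 9.08% and 7.3% of all genes. DESeq2 called 1 of the list in vehicle against naive, beside 6.52% of all genes. With the 3 libraries left out, 0 of 3 passed in edgeR.

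Ntrk2 and Ntrk3, receptors for neurotrophic factors and the most abundant of the 8 trophic receptors, did not follow the 3 libraries. There were 2104, 1840 and 1868 counts of Ntrk2 and 654, 671 and 683 of Ntrk3 in the naive replicates. Gfra1 did not follow them in the naive group, with 356, 308 and 350, then 290, 419 and 417, then 317, 381 and 435. In the GV1001 group, replicates 2 and 3 were above replicate 1 for Gfra1. Ngfr and Gfra2 on this list, named after their values were seen, had their highest counts in the 3 libraries. Ngfr had 30, 261 and 18, then 18, 23 and 69, then 42, 295 and 118 counts. Gfra2 had 187, 287 and 161, then 127, 165 and 171, then 181, 268 and 228. In CPM, Gfra2 in GV1001 replicate 3 (36.9) lay close to GV1001 replicate 1 (34.2). Among 11 transcription factors found in the table, Drgx, a homeodomain factor of ganglion and dorsal horn neurons, had 248, 353 and 204, then 133, 197 and 176, then 163, 268 and 231 counts. Etv1, a factor of proprioceptive neurons, had 333, 406 and 334, then 216, 434 and 315, then 329, 348 and 433. Isl2, chosen after its values were seen, had 12, 142 and 21, then 17, 15 and 17, then 27, 131 and 47. In edgeR 0 of 7 trophic receptors and 0 of 10 transcription factors tested passed in any comparison, with median log2 fold changes of -0.30 and -0.71 in vehicle against naive and 0.28 and 0.44 in GV1001 against vehicle. At an unadjusted p under 0.05 there were 1 and 4 in vehicle against naive, beside 19.3% of all genes. In GV1001 against vehicle there were 2 and 1, beside 9.08%, and DESeq2 called 0. With the 3 libraries left out, the medians of 6 and 9 genes were -0.05 and -0.26, then 0.24 and 0.0058. Of 7 genes of the peripheral axon cytoskeleton list, led by the neurofilaments Nefl and Nefm, 0 passed in edgeR, with medians of -0.38 and 0.30. At an unadjusted p under 0.05 there were 3 and 2 of them, beside the same 19.3% and 9.08% of all genes. DESeq2 called 2 of these in vehicle against naive, beside 6.52% of all genes. With the 3 libraries left out, the medians were -0.34 and 0.19. Nefl had 12883, 13546 and 12761 counts in the naive and 9222, 11092 and 10421 in the vehicle replicates, and Nefm 10802, 10659 and 10853 against 6864, 9451 and 8376. Peripherin (Prph) and synuclein gamma (Sncg), named after their values were seen, had their highest counts in the 3 libraries. Prph had 203, 594 and 224, then 167, 272 and 168, then 174, 482 and 343 counts. In CPM, Prph in GV1001 replicate 3 (55.6) lay close to vehicle replicate 2 (51.8). Sncg had 383, 1184 and 460, then 285, 377 and 454, then 434, 1251 and 827.

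The genes that make, or respond to, peptides of the CGRP and substance P family varied less between libraries. The summed level of 10 genes, among them the CGRP receptor parts Calcrl and Ramp1, was 192 to 201 CPM in the naive, 181 to 205 CPM in the vehicle, and 193 to 230 CPM in the GV1001 libraries. The naive replicates were close, at 198, 201 and 192 CPM, with 1109 counts in replicate 1 and 1166 in replicate 2. GV1001 replicates 2 and 3 (230 and 223 CPM) lay above GV1001 replicate 1 (193 CPM). Ramp1, which pairs with Calcrl, had 504, 457 and 440, then 350, 417 and 492, then 469, 450 and 551 counts. Tac1, the precursor of substance P in nociceptors and in dorsal horn neurons, had 262, 312 and 217, then 168, 245 and 193, then 195, 340 and 326. In edgeR 0 of 8 genes tested passed in any comparison, and 0 in DESeq2. At an unadjusted p under 0.05 there were 0, 0 and 1, beside 19.3%, 9.08% and 7.3% of all genes. With the 3 libraries left out, the medians were 0.20, -0.20 and -0.13, and with all libraries 0.16, 0.03 and 0.19.

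Genes that injured sensory neurons induce were led in level by Gap43 and Csf1. Gap43, a growth cone protein, had 1100, 1133 and 1162, then 953, 1136 and 1197, then 1002, 1126 and 1146 counts. Csf1, a growth factor for microglia, had 250, 270 and 230, then 558, 364 and 541 counts in the naive and vehicle replicates. Atf3, a stress-induced transcription factor, rose in vehicle against naive, with 4, 6 and 5 counts in the naive and 105, 49 and 77 in the vehicle replicates, a log2 fold change of 3.92 ± 0.47 and an adjusted p of 0.0258 in edgeR. Over the alternatives its log2 fold change ranged from 3.6 to 4.14 and its adjusted p from 2.31e-09 in DESeq2 to 0.283. The call was lost in limma-voom, with the samples blocked by replicate number, without naive replicate 1 (0.258), 2 (0.206) or 3 (0.241), without vehicle replicate 3 (0.0745), without GV1001 replicate 3 (0.0778), or without the 3 libraries together. It had 11, 29 and 25 counts in the GV1001 replicates. Sprr1a, a cornified envelope protein induced by axon injury and named here after its values were seen, had 0, 19 and 1, then 1, 80 and 157, then 0, 15 and 1 counts. Vehicle replicates 2 and 3 were thus highest for Sprr1a, with 0 to 2 counts of Scn10a and Scn11a. Within the naive and GV1001 groups, Sprr1a was highest in replicate 2, as were the sensory channels. Gal, named after its values were seen, had 90, 65 and 62, then 67, 108 and 67 counts in the naive and vehicle replicates. Of the 9 genes tested, 1 rose and 0 fell in vehicle against naive in edgeR, beside 0.0195% of all genes called. There were 3 at an unadjusted p under 0.05, beside 19.3%, and DESeq2 called 2, beside 6.52%. The median log2 fold change was 0.07, beside -0.0047 for all genes. In the other comparisons 0 passed in edgeR, with 3 and 1 at an unadjusted p under 0.05, beside 9.08% and 7.3%. DESeq2 called 1 and 0 there, beside 0.0569% and 0.237%.

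Markers of other tissues next to the cord were present in every library, and their order among libraries differed from list to list. The summed level of 10 Schwann cell genes of nerve roots was 1075, 683 and 1099 CPM in the naive, 334, 1124 and 1821 CPM in the vehicle, and 1739, 1852 and 2595 CPM in the GV1001 replicates. Naive replicate 2, with the highest level of sensory neuron genes, had the lowest Schwann level of the naive libraries. The 14 skeletal muscle genes, led by Acta1 and Myh4, were at 111, 111 and 329 CPM, then 190, 645 and 81.1 CPM, then 5032, 1377 and 537 CPM. GV1001 replicate 1 had the highest muscle level and no count of Scn10a, Scn11a, Prdm12, Mrgprd or Trpv1. The 6 fibroblast genes, led by Dcn and Col1a2, were at 384, 673 and 452 CPM, then 722, 512 and 1316 CPM, then 755, 1208 and 973 CPM, and were highest among their groups in naive replicate 2 and GV1001 replicate 2. The 13 dorsal horn neuron genes, led by Slc17a6 and Slc32a1, were at 845, 694 and 821 CPM, then 548, 938 and 702 CPM, then 879, 673 and 780 CPM. The 4 myeloid genes, led by Cd74 and Lyz2, were at 18.9, 30.4 and 26.5 CPM, then 1428, 85 and 309 CPM, then 43.1, 403 and 112 CPM. Naive replicate 2 and GV1001 replicate 2 were the highest of their groups. Within the naive and GV1001 groups, but not the vehicle group, the fibroblast and myeloid lists ordered the replicates as the non-CGRP members did. The lowest naive and GV1001 values of the dorsal horn list were in the libraries highest in sensory neuron genes. Their part in the result was not tested. The 5 defining genes of neural tissue of the cord, among them Mbp and Snap25, were abundant in all libraries, at 11860 to 17170 CPM in sum.

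**Figure D4:**
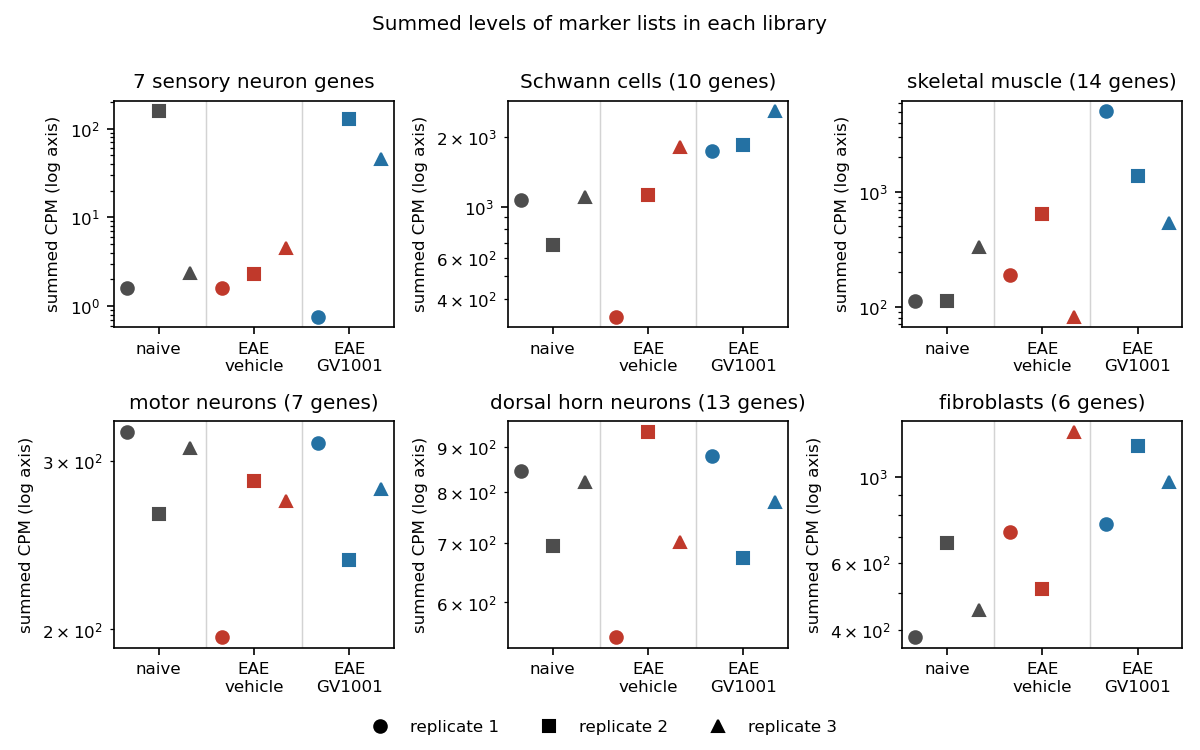
Summed CPM (vertical log axes, different in each panel) of the 7 non-CGRP sensory neuron genes and of 5 marker lists in the 9 libraries, by group and replicate. The sensory neuron genes are at 157, 129 and 45.2 CPM in naive replicate 2 and GV1001 replicates 2 and 3, and the Schwann and muscle lists put these libraries in another order.

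Genes with the pattern most like the summed level of the 7 non-CGRP members were ranked by Pearson's r of log2(CPM + 1) over the 9 libraries, among 13837 genes, as a description. The 8 closest were Dok4 (0.996), Fxyd2 (0.983), Ppp1r1c (0.98), Trarg1 (0.98), Tlx2 (0.975), Asic3 (0.971), Lix1 (0.971) and Pirt (0.968). Fxyd2, a regulatory subunit of the sodium pump, had 12, 389 and 11, then 12, 16 and 13, then 13, 385 and 144 counts. Pirt, a membrane protein that regulates Trpv1, had 0, 165 and 0, then 1, 5 and 1, then 3, 110 and 51. The 8 genes closest to Calca were Tbx3 (0.974), Tmem158 (0.97), Mdfic2 (0.967), Rbms3 (0.966), Rgs4 (0.958), Isl1 (0.954), Gfra2 (0.951) and Dmwd (0.948), none of which is among the first 8. The points of each r are the same 9 libraries, among them the 3 that stood apart.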

How the data were processed

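RNA of 9 whole spinal cord samples was extracted with TRIzol or a Maxwell kit, per the labels' protocols, without saying which sample had which, and sequenced as QuantSeq 3′ libraries, which read transcript ends. Deposited were unnormalized counts of reads for each gene symbol, made with FastQC, STAR and HTSeq on GRCm39, per the submitters' processing notes. Versions, annotation and strand setting are not given in the sources used here. The joint table matched the 9 files of single libraries value for value.

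Members and gene lists were chosen with earlier results of these data known. Low counts were removed with filterByExpr (by group, minimum count 10), leaving 15351 genes, and TMM scaling was used. All 9 libraries entered 1 edgeR 4.0.16 quasi-likelihood fit with 1 coefficient per group, with p adjusted over all genes tested (Benjamini-Hochberg, threshold 0.05). SE were derived from the F statistic. The procedure was tested on simulated data. Named were all members, the 2 most abundant and any called gene of each list, and the 8 genes most like each of 2 patterns (no Gm or Rik symbols); genes named outside this are said to be chosen after their values were seen. Of the listed symbols 1, Prrxl1, was not matched. Some genes that this rule names are not reported here. Alternatives were DESeq2 1.42.0, limma-voom (limma 3.58.1), DESeq2 size factors, no filter, the older quasi-likelihood form, the replicate number as a block, and leaving out libraries, in R 4.3.3. Intervals and figures were made in Python 3.11.15 with scipy 1.17.1 and matplotlib 3.10.9.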

Additional observations from a re-analysis of the deposited data

How the results depend on the processing

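No member passed under the alternatives run, except that DESeq2 called 1 member, Scn11a, in vehicle against naive (log2 fold change -22.66) and 1, the same gene, in GV1001 against vehicle (22.7). With no vehicle count these fitted values are no measure of size. Leaving out each library gave 0 members called in all 3 comparisons.

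Of single members' estimates in vehicle against naive, 103 kept their sign and side of the threshold and 3 had the opposite sign, all without naive replicate 2: 2.67 for Scn10a, 1.48 for Avil and 1.88 for Mrgprd. Leaving out each library, these ranged from -9.32 to 2.67, -3.98 to 1.48 and -7.55 to 1.88. In GV1001 against vehicle 106 were kept and 1 reversed, P2rx3 at -1.47 without naive replicate 2 and GV1001 replicates 2 and 3, which were left out together after seeing the data. GV1001 against naive started near 0, and 22 changed sign while 86 did not. Leaving out each library, Calca ranged from -0.63 to 0.72, Scn10a from -1.68 to 9.22, Scn11a from -1.32 to 9.23, Avil from -0.57 to 5.24, Mrgprd from -1.31 to 7.89 and P2rx3 from -1.23 to 1.5, the highest without naive replicate 2 and the lowest without GV1001 replicate 2. Without naive replicates 1 and 3 in turn, Scn11a was at -0.56 and -0.56, Avil at -0.23 and -0.23, and Mrgprd at -0.22 and -0.21. Without GV1001 replicate 1, Calca was at 0.28, Scn10a at 0.48 and P2rx3 at 0.10, and without GV1001 replicate 3, Calca was at 0.17 and Scn10a at 0.18. Calca was at 0.0045 with DESeq2 size factors, 0.0072 in DESeq2 and 0.026 in limma-voom, and Scn10a at 2.13 in limma-voom. In the fit blocked by replicate number Scn10a was at 0.47.

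The count of all genes called in vehicle against naive, 3, was 1105 in DESeq2, 543 without the filter, and 0 in limma-voom, under the block and without the 3 libraries. It ranged from 0 to 1652 when each library was left out, the last without vehicle replicate 2. In GV1001 against vehicle it was 12 in DESeq2 and 0 to 8 when each library was left out. In GV1001 against naive it was 45 in DESeq2, 1 without the filter, 1 with the older quasi-likelihood form, and 0 to 3 when each library was left out. The cause was not tested.

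Replicate numbers do not pair samples by any label. Deviations from the group mean correlated above 0.1 in 2 of 9 same-number pairs, and the block called 0 members. The lowest r was -0.50, between vehicle replicate 2 and GV1001 replicate 2. The highest was 0.25, between naive replicate 2 and GV1001 replicate 2.

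The summed level of the 9 members was 156 CPM (naive), 46.6 CPM (vehicle) and 158 CPM (GV1001). It ranged from 68.1 to 202, 33.7 to 57.1 and 90 to 206 CPM when each library of the group was left out. For the 7 non-CGRP members the ranges were 1.98 to 79.5, 1.95 to 3.41 and 23 to 87.2 CPM. Without the filter, Prdm12 and Trpv1 could be tested and did not pass in edgeR, with adjusted p of 0.371 and 0.492 in vehicle against naive and 0.641 and 0.674 in GV1001 against vehicle. With 3 libraries a group and most members present in 1 or 2 libraries, depth limits only what a count of 0 can show.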

Other observations

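A wider set of genes shared the division of the sensory neuron channels. With a rule chosen after the members' values were seen, at least 10 counts in naive replicate 2 and in GV1001 replicate 2 and at most 3 counts in each vehicle library, naive replicates 1 and 3 and GV1001 replicate 1, 10 of 40879 genes were found. They were the members Scn10a, Scn11a, Mrgprd, Trpv1 and Prdm12 and 5 others, of which 4 are described here. Tlx2, a homeobox gene of peripheral neurons, had 58, 41 and 26 counts in naive replicate 2 and GV1001 replicates 2 and 3, and 0 or 1 in each other library. Tmem79, a membrane protein, had 27, 42 and 7 in the same 3 libraries. Chrna6, a subunit of the nicotinic acetylcholine receptor, had 17, 15 and 2, and Galnt5, an enzyme of mucin-type glycosylation, had 10, 11 and 6.

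Asic3, an acid-sensing channel, differed from the sodium channels in GV1001 replicate 3. Its CPM there was 0.689 (95% exact Poisson interval 0.435 to 1.08) of that in naive replicate 2, beside 0.201 (0.145 to 0.273) for Scn10a and 0.347 (0.285 to 0.421) for Fxyd2. These were picked after their values were seen, and each compares 2 libraries.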
